A study of Mus musculus with 8 samples.

Results

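The genes of iron and heme handling, 10 in all, were followed in microglia of mice with neuromyelitis optica (NMO), in which inflammation attacks the optic nerves and spinal cord. They were chosen by name and matched by symbol: the ferritin chains Fth1 and Ftl1, the ferritin cargo receptor Ncoa4, the transporters Tfrc, Slc11a2, Slc11a1 and Slc40a1, the heme-degrading enzyme Hmox1, and the iron regulatory proteins Aco1 and Ireb2. All 10 of them were found among the 41388 genes of the count files, and all 10 passed the filter on low counts. Microglia are the resident macrophages of the brain and spinal cord. They were sorted with CD11b, CD45 and CD11c, an integrin that marks a subset of microglia in disease, and their total RNA was sequenced in bulk.

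There were 3 groups of adult C57BL/6 mice: CD11c+ microglia of NMO mice (n = 2 libraries), CD11c- microglia of NMO mice (n = 3) and microglia of control mice (n = 3). No allele, transgene or drug is named in the labels, which also do not give how NMO was induced. The control cells are CD11c negative in one label and total microglia of unmanipulated mice in their titles, so whether CD11c+ cells had been removed from them was not tested. The labels do not say that replicates came from separate mice, and p-values therefore measure only the spread between these libraries, which may be technical. The NMO libraries are numbered from 7 to 12 and the control libraries from 21 to 23, with no batch given, so disease and handling cannot be told apart in the comparisons with control. Libraries held 4943207 and 5914412 counts in CD11c+ cells, 6437516 to 6819662 in NMO CD11c- cells and 7500815 to 9246061 in control cells. Itgax, which encodes CD11c, was higher in CD11c+ than in NMO CD11c- libraries (log2 fold change 2.25, adjusted p = 7.28e-06).

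Cells take up iron bound to transferrin through the transferrin receptor, move it out of endosomes and lysosomes through divalent metal transporters, store it in ferritin and export it through ferroportin. Heme, mostly from dying red cells, is opened by heme oxygenase, which frees its iron. When iron is scarce, iron regulatory proteins bind a hairpin called the iron-responsive element: in the 5′ UTR of an mRNA this blocks its translation, and in the 3′ UTR of the transferrin receptor mRNA it slows decay. Macrophages, microglia included, are known for storing iron in ferritin and for holding it back from microbes during inflammation. Counts measure mRNA, so the translational arm of this control is not seen in these values.

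Iron-responsive elements found by a search rule in these genes are shown. Those in a 5′ UTR act on translation, and those in the Tfrc 3′ UTR on mRNA stability. They were found in GENCODE M21 UTRs (GRCm38) as a bulged C, 5 bases, the loop CAGTGN (last base not G) and 5 bases that pair with the first 5 by Watson-Crick or G-T pairs, read on the transcript strand only. Capitals mark the bulged C and the loop.
Fth1 5′ UTR, chr19:9982732-9982760, + strand: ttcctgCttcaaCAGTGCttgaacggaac
Ftl1 5′ UTR, chr7:45459779-45459807, - strand: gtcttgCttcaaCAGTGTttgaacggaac
Slc40a1 5′ UTR, chr1:45925465-45925493, - strand: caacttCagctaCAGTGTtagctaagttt
Tfrc 3′ UTR, hairpin 1, chr16:32631219-32631247, + strand: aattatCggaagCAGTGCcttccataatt
Tfrc 3′ UTR, hairpin 2, chr16:32631598-32631626, + strand: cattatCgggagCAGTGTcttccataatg
Tfrc 3′ UTR, hairpin 3, chr16:32631663-32631691, + strand: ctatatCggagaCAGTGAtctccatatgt
Tfrc 3′ UTR, hairpin 4, chr16:32631710-32631738, + strand: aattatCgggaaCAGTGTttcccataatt
The ferritin hairpins differed from each other at 3 of 29 bases, and each differed from that of Slc40a1 at 16. Among annotated genes, 23 of 20900 with a 5′ UTR (0.11%) and 100 of 21028 with a 3′ UTR (0.476%) held such a hairpin. The other 6 genes held none by this rule, which says only that these letters were not in their annotated UTRs. Hairpins of other forms were not searched for, so these 6 genes, Slc11a2 among them, may still be under this control.

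Fth1, the heavy ferritin chain, and Slc11a1, the metal transporter of phagosomes, were higher in NMO CD11c+ microglia than in control microglia. These were the 2 of 10 genes that passed the test there, a Benjamini-Hochberg adjusted p under 0.05 over all genes in edgeR's quasi-likelihood test, against 10.2% of the 12002 genes tested. Both were higher, as were 6.85% of all genes tested, and 0 of 10 were lower, as were 3.36%. The other comparisons gave no call: 0 of 10 genes passed between NMO CD11c+ and NMO CD11c- microglia (0.283% of all genes tested did) and 0 of 10 between NMO CD11c- and control microglia (3.72% did). At an unadjusted p under 0.05, edgeR's counts were 3, 1 and 6 of the 10 genes for NMO CD11c+ against NMO CD11c-, NMO CD11c- against control and NMO CD11c+ against control, beside 15.4%, 18.8% and 28.8% of all genes tested. DESeq2, another count test, called 3, 0 and 4 in the same order of comparisons, beside 2.23%, 5.8% and 13.9% of the genes to which it gave an adjusted p. The comparisons share libraries, so their values for a gene are not independent of each other.

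The median log2 fold change of the 10 genes was 0.08 for NMO CD11c+ against NMO CD11c-, -0.06 for NMO CD11c- against control and 0.21 for NMO CD11c+ against control, beside medians of 0.0097, -0.0040 and 0.0061 over all genes tested. Within the set, both directions occurred in every comparison. For 7 of the 10 genes the NMO CD11c+ and control libraries did not overlap (43.7% of all genes tested), with 4 wholly above and 3 wholly below (22.2% and 21.5%). Between the NMO subsets 4 did not overlap (28%), with 3 above and 1 below (13.8% and 14.2%). Between NMO CD11c- and control libraries 1 did not overlap (33.8%), with 1 above and 0 below (17.6% and 16.1%).

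**Figure D1:**
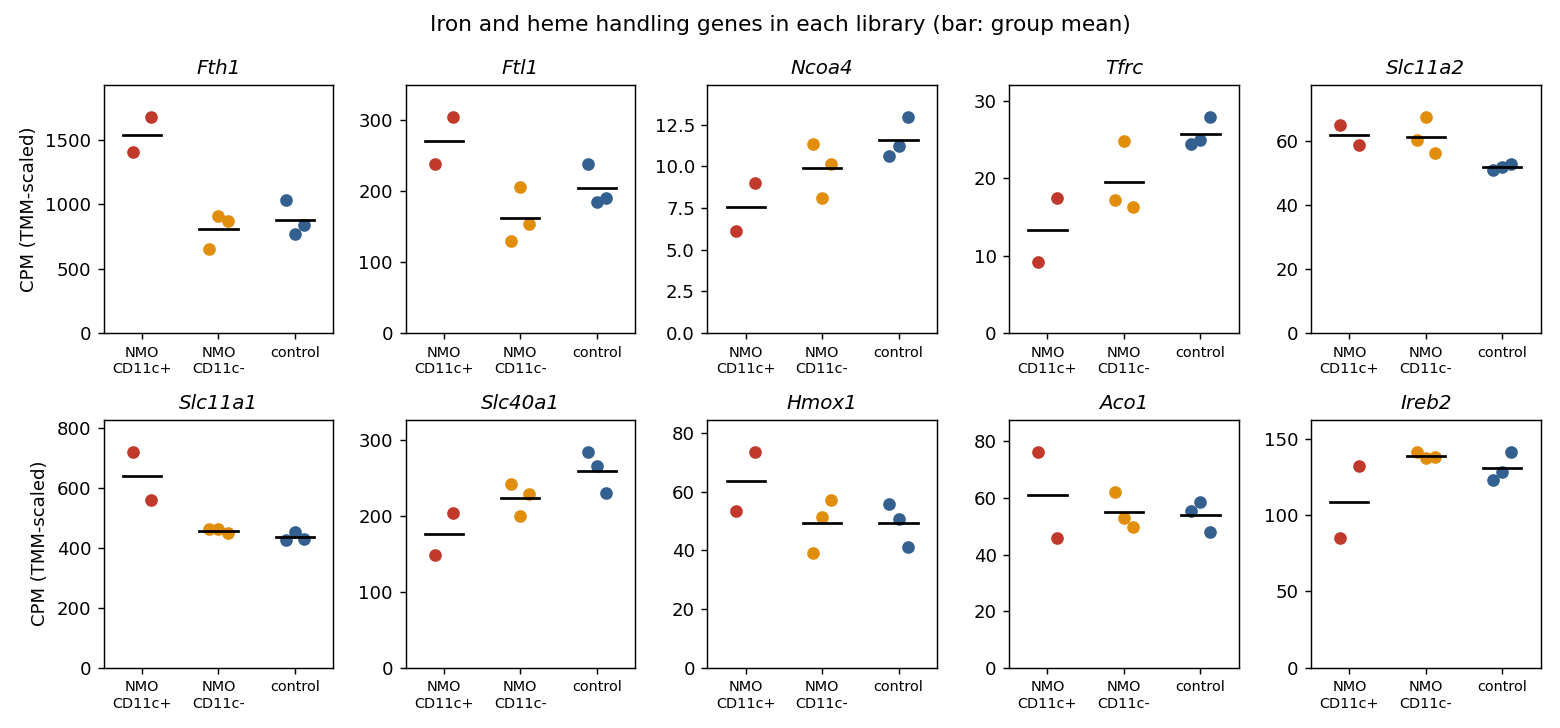
Expression of the 10 iron and heme handling genes in each library, in CPM (counts scaled to the TMM-adjusted library size), for NMO CD11c+, NMO CD11c- and control microglia. Points are libraries and bars are group means, and each vertical axis starts at 0. Fth1 was at 1404.5 and 1674 CPM in the CD11c+ libraries, above the other 6, while Tfrc was at 9.19 and 17.4 CPM there, below all 3 control libraries.

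Fth1 (ENSMUSG00000024661, GRCm38 chr19:9980598-9985098, + strand) encodes the heavy chain of ferritin, which oxidises iron as it enters the storage shell. The CD11c+ libraries held 1404.5 and 1674 CPM, the NMO CD11c- libraries 650.3, 907 and 869.7 CPM, and the control libraries 1032, 766 and 837 CPM. Both CD11c+ libraries were above the other 6, whose NMO CD11c- and control values overlapped. Means were 1539 ± 191 CPM (SD, n = 2) in CD11c+ cells, 809 ± 139 CPM (SD, n = 3) in NMO CD11c- cells and 879 ± 138 CPM (SD, n = 3) in control cells. The gene rose in CD11c+ cells against control (log2 fold change 0.81, SE 0.18, adjusted p = 0.0214). Against NMO CD11c- cells the log2 fold change was 0.93 (SE 0.18), with an adjusted p of 0.0611 that missed the threshold. NMO CD11c- cells differed from control by -0.12 (95% interval -0.48 to 0.24). Where a fit left out a CD11c+ library, the 1 that remained was assumed to vary like the other groups, so a call there rests on a single CD11c+ library. The call against control was lost without control replicate 2 (adjusted p = 0.0878) or control replicate 3 (0.0875). The difference between the NMO subsets was called by DESeq2 (3.69e-05), without the low-count filter (2.18e-05), after correction for GC content and length (0.0312) and without CD11c+ replicate 2 (0.0180). Adjusted p ranged from 0.000139 to 0.0878 over all alternatives for the comparison with control, and from 2.18e-05 to 0.226 for that between the subsets.

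Ftl1 (ENSMUSG00000050708, chr7:45457944-45459884, - strand) encodes the light chain, which helps to form the iron core. CD11c+ libraries held 238 and 303 CPM, NMO CD11c- libraries 129, 205 and 154 CPM, and control libraries 237, 184 and 190.4 CPM. The lower CD11c+ library was nearly level with the highest control library, and both CD11c+ libraries were above all NMO CD11c- libraries. The log2 fold change of CD11c+ cells was 0.74 (SE 0.20, adjusted p = 0.156) against NMO CD11c- cells and 0.41 (SE 0.20, adjusted p = 0.202) against control. DESeq2 called the first of these (adjusted p = 0.0177), as did edgeR without the low-count filter (0.000573), within a range up to 0.410 over all alternatives. Against control the log2 fold change was 0.08 (adjusted p = 0.804) after the GC correction, 0.57 without CD11c+ replicate 1 and 0.22 without CD11c+ replicate 2. Of the 50-base words of its transcript, 78.9% also occurred in transcripts of 15 other genes, the pseudogenes Ftl1-ps1, Ftl1-ps2 and Ftl2-ps among them. Those genes together held 46 counts over the 8 libraries, against 11268 for Ftl1. How the counting treated reads that fit several genes, and whether it used strand, is not given in the sources used here, so the level of Ftl1 is uncertain. It also overlaps Gm10252 on the opposite strand.

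The ratio of Fth1 to Ftl1 counts compares the chains within each library. It is not a ratio of mRNA molecules, because the counts were not scaled to transcript length (1494 and 968 bases). The level of Ftl1 is also uncertain, as given above. The ratio was 5.91 and 5.52 in CD11c+ libraries, 5.05, 4.43 and 5.66 in NMO CD11c- libraries, and 4.35, 4.16 and 4.40 in control libraries. All 5 NMO libraries were above all 3 control libraries, and CD11c+ and NMO CD11c- libraries overlapped. Mean ratios were 5.72 ± 0.28 in CD11c+ cells (SD, n = 2), 5.04 ± 0.62 in NMO CD11c- cells (SD, n = 3) and 4.30 ± 0.13 in control cells (SD, n = 3). A two-sided exact permutation test gave p = 0.1 for CD11c+ against control, a difference of 1.41, and p = 0.1 for NMO CD11c- against control, a difference of 0.742. Between the NMO subsets the difference was 0.671 (exact p = 0.3). These group sizes allow no exact p below 0.1, so the difference from control could not have passed a threshold of 0.05.

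**Figure D2:**
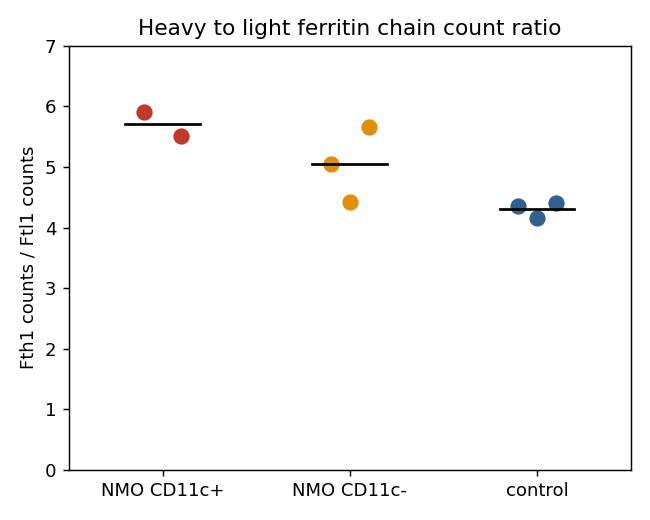
Ratio of Fth1 counts to Ftl1 counts in each library of NMO CD11c+, NMO CD11c- and control microglia. Points are libraries and bars are group means (5.72, 5.04 and 4.30), and the axis starts at 0. The control libraries lie closest together, between 4.16 and 4.40.

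Ncoa4 (ENSMUSG00000056234, chr14:32159865-32179855, + strand) encodes the receptor that carries ferritin to autophagosomes so that its iron can be released. It was low in all libraries, at 6.13 and 8.98 CPM in CD11c+ libraries, 11.4, 8.13 and 10.1 CPM in NMO CD11c- libraries, and 10.6, 11.2 and 12.9 CPM in control libraries. CD11c+ libraries were below all control libraries and overlapped the NMO CD11c- libraries. The log2 fold change of CD11c+ cells against control was -0.61 (SE 0.23, adjusted p = 0.116), opposite in sign to those of both ferritin chains. It was -0.92 without CD11c+ replicate 2 and -0.37 without CD11c+ replicate 1. The first of these passed the threshold (adjusted p = 0.0296) with 1 CD11c+ library in the fit, in a range up to 0.409. Another gene, Gm6768, shared 43.1% of its 50-base words and held 15 counts in all, against 571 for Ncoa4, so its level is uncertain too.

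Tfrc (ENSMUSG00000022797, chr16:32608920-32632794, + strand) encodes the transferrin receptor, the main entry for transferrin iron. By the search rule above, it alone among the 10 held hairpins in its 3′ UTR. CD11c+ libraries held 9.19 and 17.4 CPM, NMO CD11c- libraries 17.2, 24.8 and 16.3 CPM, and control libraries 24.5, 24.96 and 27.9 CPM. CD11c+ libraries were below every control library, and NMO CD11c- libraries overlapped with both other groups. The log2 fold change was -0.94 (SE 0.26) for CD11c+ cells against control, with an adjusted p of 0.0510 just above the threshold. It was -0.53 (SE 0.27, adjusted p = 0.359) against NMO CD11c- cells and -0.40 (SE 0.22, adjusted p = 0.361) for NMO CD11c- cells against control. The first of these passed under 7 of 16 alternatives, DESeq2 (adjusted p = 0.0120) and the GC correction (0.0373) among them, in a range from 0.000309 to 0.191. It was -0.56 without CD11c+ replicate 1 and -1.49 without CD11c+ replicate 2, so its size rested on which of those libraries was used.

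Slc40a1 (ENSMUSG00000025993, chr1:45908068-45926523, - strand) encodes ferroportin, the one known iron exporter of mammalian cells. CD11c+ libraries held 149 and 204 CPM, NMO CD11c- libraries 242, 201 and 229 CPM, and control libraries 285, 266 and 230.0 CPM. CD11c+ libraries were below every control library, while replicate 2 of the CD11c+ group was above the lowest NMO CD11c- library. The log2 fold change was -0.56 (SE 0.16, adjusted p = 0.0524) for CD11c+ cells against control, -0.34 (SE 0.16, adjusted p = 0.333) against NMO CD11c- cells and -0.22 (SE 0.14, adjusted p = 0.445) for NMO CD11c- cells against control. Against control it was called by DESeq2 (adjusted p = 0.00970), by edgeR with library size only (0.0343), without the low-count filter (0.00335) and without CD11c+ replicate 2 (0.00364), in a range up to 0.187. After the GC correction it was -0.33. Its 5′ UTR hairpin is of the same kind as those of the ferritin chains, whose CD11c+ values lay on the other side of control.

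Slc11a1 (ENSMUSG00000026177, chr1:74375195-74386062, + strand) encodes a transporter, also called Nramp1, whose working form removes iron and other divalent metals from phagosomes. Whether the allele of these C57BL/6 mice makes a working protein was not tested, and the counts measure its mRNA only. CD11c+ libraries held 719 and 559.9 CPM, NMO CD11c- libraries 461, 462 and 448 CPM, and control libraries 426, 451 and 427 CPM. Both CD11c+ libraries were above the other 6, which spread over a narrow range. Means were 639 ± 112 CPM (SD, n = 2) in CD11c+ cells, 457 ± 7.82 CPM (SD, n = 3) in NMO CD11c- cells and 435 ± 14.2 CPM (SD, n = 3) in control cells. The gene rose in CD11c+ cells against control (log2 fold change 0.56, SE 0.13, adjusted p = 0.0236). Against NMO CD11c- cells it was 0.48 (SE 0.13) with an adjusted p of 0.154, and NMO CD11c- cells differed from control by 0.07 (95% interval -0.18 to 0.33). After the GC correction the log2 fold change against control was 0.37 (adjusted p = 0.0273). The call against control was lost without CD11c+ replicate 1, where the value was 0.36 (adjusted p = 0.0638), without control replicate 1, 2 or 3 (0.0881, 0.0724 and 0.0891) and when the fit held only the groups compared (0.0810). The difference between the NMO subsets was called by DESeq2 (adjusted p = 0.00968) and without CD11c+ replicate 2 (0.00284), in a range up to 0.446.

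Slc11a2 (ENSMUSG00000023030, chr15:100387898-100425072, - strand) encodes the divalent metal transporter that moves iron out of endosomes after transferrin uptake. It held 65.0 and 58.7 CPM in CD11c+ libraries, 60.3, 67.3 and 56.3 CPM in NMO CD11c- libraries, and 51.0, 51.8 and 52.8 CPM in control libraries. All 5 NMO libraries were above all 3 control libraries. The differences were small and missed the threshold: the log2 fold change against control was 0.25 (SE 0.11, adjusted p = 0.166) in CD11c+ cells and 0.24 (SE 0.10, adjusted p = 0.222) in NMO CD11c- cells. The NMO subsets differed by 0.011 (95% interval -0.24 to 0.26). The gene overlaps Gm5475 on the opposite strand, and without a stated strand setting reads of both cannot be told apart.

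Hmox1 (ENSMUSG00000005413, chr8:75093621-75100589, + strand) encodes inducible heme oxygenase, which opens heme into iron, carbon monoxide and biliverdin. It held 53.5 and 73.5 CPM in CD11c+ libraries, 39.2, 51.2 and 57.01 CPM in NMO CD11c- libraries, and 55.6, 50.6 and 41.2 CPM in control libraries. All 3 groups overlapped. The log2 fold change of CD11c+ cells was 0.37 (95% interval -0.06 to 0.80, adjusted p = 0.371) against NMO CD11c- cells and 0.37 (-0.06 to 0.80, adjusted p = 0.229) against control. Both values rested on which CD11c+ library was used: against NMO CD11c- cells it was 0.58 without CD11c+ replicate 1 and 0.12 without replicate 2, and against control 0.58 and 0.12. After the GC correction the value against control was 0.15 (adjusted p = 0.642). NMO CD11c- cells differed from control by -0.00075 (-0.38 to 0.38), and the sign of that value turned with the scaling.

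Aco1 (ENSMUSG00000028405, chr4:40143081-40198338, + strand) and Ireb2 (ENSMUSG00000032293, chr9:54863789-54912530, + strand) encode the iron regulatory proteins that bind the hairpins above. Aco1 held 76.2 and 45.8 CPM in CD11c+ libraries, 49.8 to 62.1 CPM in NMO CD11c- libraries and 48.0 to 58.6 CPM in control libraries. The CD11c+ libraries were thus the highest and the lowest of the 8, and the log2 fold change against control was 0.17 (95% interval -0.27 to 0.60). Ireb2 held 85.2 and 132 CPM in CD11c+ libraries, 137.6 to 141 CPM in NMO CD11c- libraries and 123 to 141 CPM in control libraries. Its CD11c+ libraries were below all NMO CD11c- libraries, at -0.35 on the log2 scale (SE 0.16, adjusted p = 0.331), and overlapped control. Without CD11c+ replicate 2 the same comparison gave -0.71 (adjusted p = 0.00304), from CD11c+ replicate 1 alone. Without CD11c+ replicate 1 it gave -0.07, and after the GC correction it gave -0.05, within a range of adjusted p up to 0.846.

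**Figure D3:**
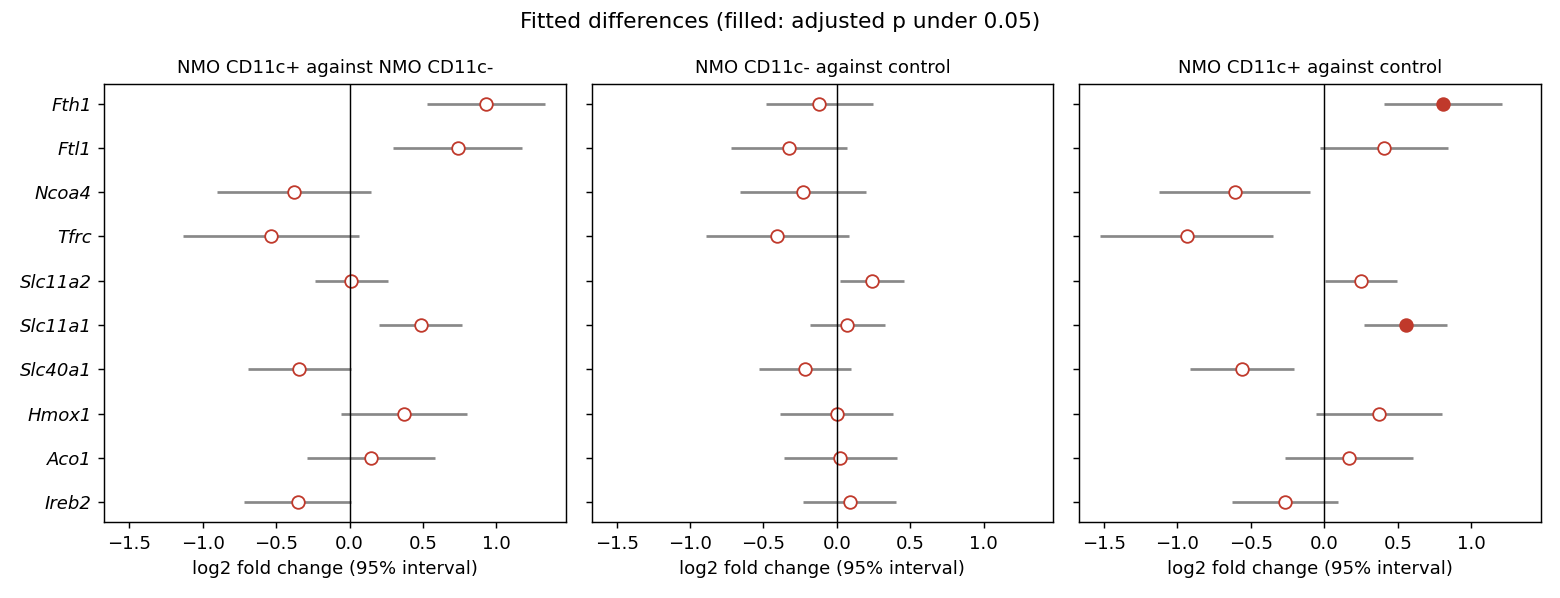
Fitted log2 fold change of each gene with its 95% interval (horizontal axis) in the 3 comparisons, from edgeR over all genes. Filled points passed an adjusted p of 0.05, which only Fth1 (0.81) and Slc11a1 (0.56) did, both for NMO CD11c+ against control. Intervals for Tfrc and Ncoa4 are the widest, and those for Slc11a2 the narrowest.

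Levels of different genes were compared as CPM per kilobase of the principal transcript. Fth1 was highest in each group, at 1030 in CD11c+ cells, 541 in NMO CD11c- cells and 588 in control cells. Ftl1 and Slc11a1 followed, at 279 and 276 in CD11c+ cells, 168 and 197 in NMO CD11c- cells, and 211 and 188 in control cells, and their libraries overlapped in each group. Slc40a1 came next, at 52.4, 66.4 and 77.2 CPM per kilobase in CD11c+, NMO CD11c- and control cells, then Hmox1 at 40.5, 31.3 and 31.3. These neighbours overlapped in CD11c+ cells and were separate in both other groups. Ireb2, Slc11a2 and Aco1 lay between 14.1 and 24.1 CPM per kilobase in every group, and overlapped in CD11c+ cells only. Tfrc, at 2.72, 3.98 and 5.27, and Ncoa4, at 1.86, 2.43 and 2.86, closed the order, and overlapped only in CD11c+ cells. The places of Ftl1 and Ncoa4 are uncertain, given the sequence they share with other genes.

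The CD11c+ libraries differed from each other in a way that followed base composition. Across genes, log2 CPM relative to each gene's mean over the 8 libraries had a Spearman correlation with GC content of 0.592 in CD11c+ replicate 1, against -0.297 to -0.036 in the other 7 libraries. Between replicate 1 and replicate 2, the median log2 difference ran over deciles of GC content, lowest first, between -0.60 and 0.42. Tfrc (GC 39.8%) differed by -0.89 and Ireb2 (39.0%) by -0.63, beside a median of -0.60 in the lowest decile. Slc40a1 (42.0%) differed by -0.45, beside a median of -0.41 in decile 2. Ncoa4 (45.3%) differed by -0.51, below the lower quartile of -0.50 in decile 3, where the median was -0.24. Aco1 (52.1%) differed by 0.73, above the upper quartile of 0.38 in decile 7, where the median was 0.17. Slc11a2 (50.4%) differed by 0.15, beside a median of 0.06 in decile 6. Slc11a1 (55.4%), near the border of deciles 8 and 9, differed by 0.36, beside medians of 0.25 and 0.33. Ftl1 (58.1%) went against the trend at its GC content by -0.35, as did Hmox1 (53.3%) by -0.45. Fth1 (49.95%) differed by -0.25, where the trend was near its middle. In decile 6 of GC content, which holds Fth1, the median was 0.06 and the lower quartile -0.18. When GC content and transcript length were corrected for in each library, Fth1 (0.76) and Slc11a1 (0.37) stayed called against control, Tfrc was also called at -0.73 (adjusted p = 0.0373), and Fth1 alone was called between the NMO subsets. Without CD11c+ replicate 2 the fit called 6 of the 10 genes between the NMO subsets and 7 against control, beside 24.2% and 32.7% of all genes tested in that fit. Without CD11c+ replicate 1 it called 0 and 1, beside 0.0322% and 7.06%. The number of calls thus moved over all genes and not in these 10 alone.

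**Figure D4:**
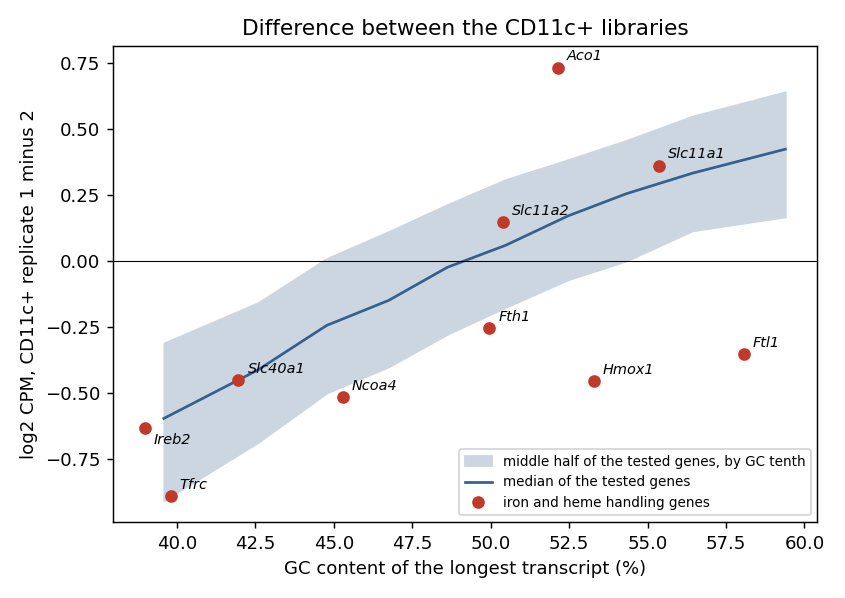
Difference between the CD11c+ libraries (log2 CPM, replicate 1 minus replicate 2) against the GC content of each gene's longest transcript in percent. The line is the median of the tested genes in deciles of GC content, the band their interquartile range, and the points the 10 iron and heme handling genes. The median climbs between -0.60 and 0.42 from low to high GC content. Tfrc, Ncoa4, Ftl1, Hmox1 and Fth1 lie below the line, and Aco1 lies furthest above it.

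By root mean square difference of centred log2 CPM over the 8 libraries, the genes most like Fth1 were Lmna (0.115), Nfkbib (0.142) and Ndufa5 (0.158), beside a median of 0.481 over all tested genes. None of the 3 was called in any comparison. Those most like Slc11a2, which varied little, were 1700030K09Rik (0.0406), Ccndbp1 (0.047) and Tmem250-ps (0.0498), beside a median of 0.268.

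The wider pathway was read from 76 genes in 7 lists, of which 63 passed the low-count filter. Between NMO CD11c+ and NMO CD11c- cells 3 were called (4.76%, beside 0.283% of all genes tested), all lower. Between NMO CD11c- and control cells 4 were called (6.35%, beside 3.72%), all higher. Between NMO CD11c+ and control cells 10 were called (15.9%, beside 10.2%), 5 higher and 5 lower. DESeq2 called 3, 5 and 11 in the same order, beside 2.23%, 5.8% and 13.9% of all genes to which it gave an adjusted p. Without CD11c+ replicate 1 the counts were 0, 8 and 5, beside 0.0322%, 9.59% and 7.06% of all genes tested in that fit. Without CD11c+ replicate 2 they were 17, 8 and 20, beside 24.2%, 9.48% and 32.7%. Leaving out 1 control library gave 1 to 3 calls between the NMO subsets (0.0923% to 0.251% of all genes), 1 for NMO CD11c- against control (1.18% to 1.45%) and 5 for NMO CD11c+ against control (4.09% to 4.39%). Without NMO CD11c- replicate 1 or 2 the second count was 2 (1.98% and 1.58%).

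Ceruloplasmin (Cp), the ferroxidase that works with ferroportin, was higher in both NMO groups. It held 16.5 and 18.7 CPM in CD11c+ libraries, 25.3, 27.3 and 24.8 CPM in NMO CD11c- libraries, and 5.26, 9.43 and 6.02 CPM in control libraries, so all 5 NMO libraries were above all 3 control libraries. Against control its log2 fold change was 1.34 (SE 0.23, adjusted p = 0.00611) in CD11c+ cells and 1.89 (SE 0.20, adjusted p = 0.000843) in NMO CD11c- cells, and both calls held under all 16 alternatives. Between the NMO subsets it differed by -0.55 (SE 0.22, adjusted p = 0.282). The values of its partner Slc40a1, given above, went the other way without passing the test.

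Ltf, Lcn2 and Hp, which are spread over 3 of the lists, were lower in CD11c+ cells than in both other groups. Ltf encodes lactoferrin and Lcn2 lipocalin 2, which bind iron and iron-loaded siderophores outside cells, and Hp encodes haptoglobin, which binds free hemoglobin; all are known products of neutrophil granules. Trf, which encodes transferrin and was singled out after its values were seen, differed in CD11c+ cells by -0.25 (adjusted p = 0.451) against NMO CD11c- cells and by -0.13 (adjusted p = 0.621) against control, neither past the threshold. Ltf held 4.70 and 4.76 CPM in CD11c+ libraries, 610.1, 2242 and 449 CPM in NMO CD11c- libraries, and 190.2, 250.3 and 403 CPM in control libraries. It fell in CD11c+ cells, with log2 fold changes of -7.86 (SE 0.89, adjusted p = 0.00973) against NMO CD11c- cells and -5.89 (SE 0.84, adjusted p = 0.00223) against control. Lcn2 held 1.84 and 2.11 CPM in CD11c+ libraries, 211, 849.6 and 159 CPM in NMO CD11c- libraries, and 59.6, 82.5 and 134 CPM in control libraries. It fell likewise, with log2 fold changes of -7.67 (adjusted p = 0.0180) and -5.52 (adjusted p = 0.00860). Hp had 3 counts in both CD11c+ libraries together, which put it 232-fold lower than in NMO CD11c- cells (95% interval 79.1 to 1120) and 49.2-fold lower than in control cells (16.7 to 240.0), by counting error alone. Without NMO CD11c- replicate 2, which held the most of all 3 genes, Hp was 114-fold lower than in NMO CD11c- cells (38.8 to 556), and the log2 fold changes were -6.80 for Ltf and -6.53 for Lcn2. With 1 CD11c+ library left out the Hp fold lay between 161 and 373 against NMO CD11c- cells and between 34.2 and 79.2 against control. In NMO CD11c- cells Hp rose against control by 2.23 (SE 0.53, adjusted p = 0.0472), a call lost without NMO CD11c- replicate 2 (1.21, adjusted p = 0.0527) or without any 1 control library (0.115 to 0.207). All 3 calls between the NMO subsets were lost without CD11c+ replicate 1, with adjusted p between 0.0745 and 0.136, and when the fit held only the groups compared. That of Lcn2 was also lost without control replicate 2 (0.0518) and that of Hp without control replicate 2 (0.0651) or 3 (0.0562). Against control, Lcn2 lost its call without CD11c+ replicate 1 (0.0613), and Hp without either CD11c+ library or any 1 control library (0.0547 to 0.151).

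Neutrophil markers moved with these 3 genes. The summed level of 10 such markers was 11.0 to 15.3 CPM in CD11c+ libraries, 1621 to 8501 CPM in NMO CD11c- libraries and 675 to 1375 CPM in control libraries, and 9 of 10 fell in CD11c+ cells in both comparisons. Ly6g, the defining neutrophil marker, had 0 counts in both CD11c+ libraries. Between NMO CD11c- and control cells edgeR called 2 of the 10 higher and 0 lower. Those were S100a8 at 2.22 (adjusted p = 0.0377) and Cxcr2 at 1.93 (0.0193) on the log2 scale. NMO CD11c- replicate 2 held the highest sum and also the most Ltf. The sum of 8 monocyte markers was 38.8 to 39.0 CPM in CD11c+ libraries, 187 to 979 CPM in NMO CD11c- libraries and 77.7 to 151 CPM in control libraries. Most of that sum in NMO CD11c- and control libraries was Chil3, which neutrophils also express, with 3 and 4 counts in CD11c+ libraries, 775 to 5749 in NMO CD11c- libraries and 468 to 924 in control libraries. The other 7 monocyte markers, a split chosen after these values were seen, summed to 38.1 and 38.4 CPM in CD11c+ libraries, 73.3 to 114 CPM in NMO CD11c- libraries and 20.4 to 29.95 CPM in control libraries. Of 7 tested monocyte markers, Fn1 was called higher and Chil3 lower in CD11c+ cells against control, and Chil3 was also called lower against NMO CD11c- cells. The part of these markers in the results was not tested. In such bulk samples, fewer cells of a type and less RNA per cell cannot be told apart.

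Genes of iron entry and release from lysosomes gave 2 further calls. Mcoln1, a lysosomal cation channel that passes iron, held 141 and 139.9 CPM in CD11c+ libraries, 101 to 117 CPM in NMO CD11c- libraries and 90.6 to 98.2 CPM in control libraries. It rose in CD11c+ cells against control (log2 fold change 0.59, SE 0.10, adjusted p = 0.00617), also under all 16 alternatives. Slc39a14, a zinc and iron importer, rose in NMO CD11c- cells against control by 0.73 (SE 0.13, adjusted p = 0.0146), with 53.0 to 58.5 CPM in NMO CD11c- libraries and 30.1 to 35.5 CPM in control libraries. In CD11c+ cells it stood at 33.3 and 46.5 CPM and differed from control by 0.26 (SE 0.15, adjusted p = 0.285). The Slc39a14 call was lost without NMO CD11c- replicate 1 or 3 or any 1 control library, with adjusted p between 0.0517 and 0.0837. Among 5 tested ferritin partners and iron chaperones, Pcbp2, a chaperone that delivers iron to ferritin, rose in CD11c+ cells against control by 0.48 (SE 0.11, adjusted p = 0.0271), a call lost without any 1 control library (0.0582 to 0.0978), without NMO CD11c- replicate 3 (0.05003) and with only the groups compared (0.0818).

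Of 13 tested genes of mitochondrial iron and iron-sulfur clusters, 2 rose in CD11c+ cells against control, as did 6.85% of all genes tested. Hscb, the co-chaperone that hands new clusters to their targets, held 17.2 and 19.4 CPM in CD11c+ libraries, 14.4, 11.3 and 12.8 CPM in NMO CD11c- libraries, and 8.32, 8.36 and 6.67 CPM in control libraries, with no overlap between any of the groups. Against control its log2 fold change was 1.23 (SE 0.18, adjusted p = 0.00272) in CD11c+ cells, called under all 16 alternatives, and 0.72 (SE 0.17, adjusted p = 0.0437) in NMO CD11c- cells, where the call was lost with the GC correction (0.123) and without any 1 library of those 2 groups (0.0631 to 0.157). Glrx5, a mitochondrial carrier of clusters, rose in CD11c+ cells against control by 0.67 (SE 0.18, adjusted p = 0.0439), a call that 10 of 16 alternatives lost, among them leaving out any 1 library but NMO CD11c- replicate 2 (0.0621 to 0.136). The list's median log2 fold change over 13 tested genes was 0.28 between the NMO subsets, where edgeR called 0 (3 at an unadjusted p under 0.05, and DESeq2 called 0), and 0.21 for CD11c+ against control.

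Heme genes gave 2 calls beside Hp. Cpox, an enzyme of heme synthesis, held 16.3 and 22.4 CPM in CD11c+ libraries, 19.1 to 25.9 CPM in NMO CD11c- libraries and 32.8 to 35.3 CPM in control libraries. It fell in CD11c+ cells against control (log2 fold change -0.81, SE 0.18, adjusted p = 0.0193), a call lost without CD11c+ replicate 1 (0.0730) or any 1 control library (0.0611 to 0.0690). The other 10 tested genes of heme synthesis were not called in that comparison, and the list's median was 0.18. Abcg2, an exporter that accepts heme and porphyrins, fell in CD11c+ cells against control (log2 fold change -0.57, SE 0.15, adjusted p = 0.0437), which 8 of 16 alternatives lost, the GC correction among them (-0.29, adjusted p = 0.165). The others were the fit of only the groups compared (0.0862) and those that left out NMO CD11c- replicate 1 or 3 or any 1 control library (0.0657 to 0.129). Leaving out CD11c+ replicate 1 gave -0.38 (0.156). Of the BACH1 and NRF2 axis, which represses or induces Hmox1 and the ferritin genes, edgeR called 0 of 12 tested genes in all 3 comparisons. At an unadjusted p under 0.05 it counted 3 for NMO CD11c+ against NMO CD11c-, 0 for NMO CD11c- against control and 3 for NMO CD11c+ against control, beside the 15.4%, 18.8% and 28.8% of all genes given above, and DESeq2 called 0 in each. The smallest adjusted p in the list were those of Gclm, a subunit of the first enzyme of glutathione synthesis, and Txnrd1, a thioredoxin reductase, at -0.54 (0.0924) and -0.32 (0.0926) for CD11c+ cells against control. Between the NMO subsets it was that of Srxn1, sulfiredoxin, at 0.79 (0.232).

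**Figure D5:**
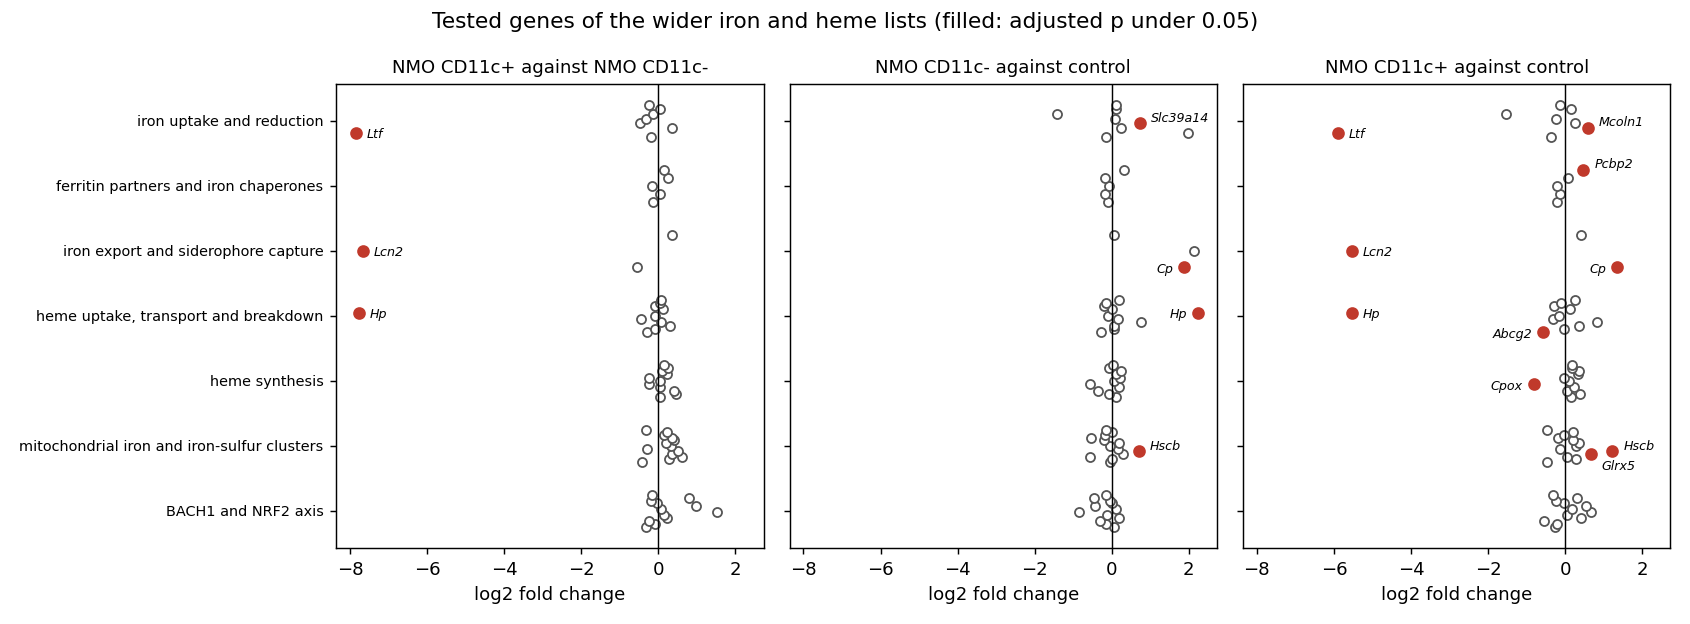
Log2 fold change (horizontal axis) of the 63 tested genes in 7 lists of iron and heme genes, in the 3 comparisons. Filled, named points passed an adjusted p of 0.05 in edgeR. Ltf, Lcn2 and Hp lie far left of all others for NMO CD11c+ against NMO CD11c- and against control, and the fitted value of Hp in CD11c+ cells rests on 3 counts.

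Of the listed genes that did not pass the filter, Tfr2, Ftmt and Hephl1 had 0 counts in all 8 libraries. Hamp, the hormone hepcidin that degrades ferroportin, had 0 counts in CD11c+ libraries, 1 in NMO CD11c- libraries and 3 in control libraries. Alas2, the erythroid enzyme of heme synthesis, had 2 to 4 counts per library, and Hpx, the heme scavenger hemopexin, 1 to 3. Microglial markers, 10 genes, summed to 32730 and 34480 CPM in CD11c+ libraries, 34200 to 42390 CPM in NMO CD11c- libraries and 42000 to 46300 CPM in control libraries, so all libraries carried the labelled cell type. Of those 10 markers 4 fell in CD11c+ cells against control. Border-associated macrophage markers, among them the hemoglobin receptor Cd163, summed to 69.6 to 139 CPM, 119 to 153 CPM and 49.4 to 123 CPM in the same groups. Of 9 tested, Folr2 was called higher against control in both NMO groups and Ms4a7 in NMO CD11c- cells, and 0 were called between the NMO subsets. The 6 dendritic cell markers summed to 17.3 and 18.4 CPM in CD11c+ libraries, 15.0 to 19.0 CPM in NMO CD11c- libraries and 7.71 to 12.1 CPM in control libraries. Of 2 tested, Flt3 was called higher against control in both NMO groups. Their part in the differences of the 10 genes was not tested. The 6 T cell markers summed to 1 to 3 counts in CD11c+ libraries, 1 to 4 in NMO CD11c- libraries and 2 to 8 in control libraries. Of these, Cd3e, Cd3g and Trbc2 had 0 counts throughout, and 0 of the 6 passed the low-count filter.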

How the data were processed

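Total RNA of sorted microglia was sequenced after TruSeq preparation, per the labels' protocols. The authors deposited raw counts per gene, 1 file per library. Per the submitters' processing notes, STAR, the GRCm38 build, HTSeq 0.5.4 and edgeR 3.12.0 were used. For the annotation release and the strand setting: not given in the sources used here. Of 41388 Ensembl identifiers, 40254 matched a GENCODE M21 symbol and 1134 did not (0.155% of counts). The genes and lists were chosen with earlier results of these data known.

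Genes passing filterByExpr (minimum count 10), 12002 in all, entered 1 quasi-likelihood fit of all 8 libraries with TMM scaling (edgeR 4.0.16, limma 3.58.1, R 4.3.3; residual degrees of freedom 5, prior 5.08, common dispersion 0.0223). Adjusted p is Benjamini-Hochberg over those genes, with a threshold of 0.05. CPM use the scaled library size. Intervals are 95%, and those from counts cover counting error only. Depth was 4943207 to 9246061 counts per library. Libraries of a group differed by a chi-square per gene of 6.36 to 36.9 from counting noise alone, so none was merged as 1 library deposited again; whether they share a mouse cannot be told from this. Groups followed the labels.

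Alternatives were RLE, upper quartile or library-size scaling, no filter, at least 1 CPM in at least 3 libraries, DESeq2 1.42.0, only the groups compared, a GC content and length correction (99.53% of tested genes had both) and leaving out each library (the CD11c+ group then has 1, assumed to vary like the other groups). All members were named, and of each list the called genes; up to 4 genes of smallest adjusted p per list and comparison could be named besides. The sum of monocyte markers without Chil3 was added after the data were seen. Scripts were tested on simulated data. Columns left unused numbered 0. Sequence shared with other genes was counted in words of 50 bases.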

Additional observations from a re-analysis of the deposited data

How the results depend on the processing

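No paired analysis was possible because nothing in the labels ties a CD11c+ library to the CD11c- library of the same mouse. Of 480 alternative values for the 10 genes, 426 kept their direction and their side of the threshold. The number of genes called between NMO CD11c+ and NMO CD11c- (34) was 707 without the low-count filter, 268 with DESeq2, 5 with only the groups compared, 104 with the GC correction and 4 to 3016 with 1 library left out; the iron and heme genes among them (0) numbered 2, 3, 0, 1 and 0 to 6. With library size only that count was 8 higher and 24 lower, beside 12 and 22. For NMO CD11c- against control (446) the same settings gave 1157, 696, 1221, 916 and 141 to 1193, and 0 of the 10 genes in each. For NMO CD11c+ against control (1225) the count was 2115 without the filter, 627 with only the groups compared and 487 to 4077 with 1 library left out. The iron and heme genes among them (2) were 4 with library size only, 4 without the filter, 4 with DESeq2, 1 with only the groups compared and 0 to 7 with 1 library left out: 7 without CD11c+ replicate 2, 1 without CD11c+ replicate 1 or control replicate 1 and 0 without control replicate 2 or 3. Directions that turned belonged to small values. Between the NMO subsets Slc11a2 was -0.049 with library size only, -0.015 without the filter and -0.063 to 0.084 with 1 library left out, and Aco1 was -0.26 to 0.47. For NMO CD11c- against control Hmox1 was 0.00037 with RLE, 0.0076 with upper quartile, 0.031 with library size only, 0.00062 with DESeq2 and -0.12 to 0.14 with 1 library left out. There Aco1 was -0.047 with the GC correction and -0.073 to 0.089 with 1 library left out, and Fth1 -0.21 to 0.016. For NMO CD11c+ against control Ireb2 was 0.038 with the GC correction and -0.62 to 0.011 with 1 library left out, and Aco1 -0.24 to 0.49. The cause was not tested. The Fth1 to Ftl1 difference kept its sign under each alternative, at 0.363 to 0.978 between the NMO subsets, 0.435 to 1.05 for NMO CD11c- against control and 1.22 to 1.61 for NMO CD11c+ against control with 1 library left out. Depth limits Ncoa4 and Tfrc most, with 30 and 51 and with 45 and 99 counts in the CD11c+ libraries.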
